A study of Mus musculus with 10 samples.

Results

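The 49 genes described here move sugar through the cells of the mouse colon crypt. They encode sugar transporters, the enzymes and regulators of glycolysis, the enzymes that decide the fate of pyruvate, and the enzymes of gluconeogenesis, glycogen turnover, fructose entry and the pentose phosphate pathway. The genes were listed by name, and no measured value entered the rule, though earlier results of these data were known when the list was chosen. All 49 were found among the 33632 gene IDs of the count table by the mouse symbol of their Ensembl ID. A default filter on low counts left 47 of them among 14963 tested genes, and the other 2, Slc2a2 and Slc2a3, are given below by their counts.

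Colon crypts, the epithelial glands that house the stem cells of the large bowel, were profiled by RNA sequencing of mRNA-enriched libraries in 10 samples. The 5 libraries labelled flox had the genotype Sox21fl/fl, in which both copies of the transcription factor gene Sox21 are flanked by loxP sites. The 5 labelled CKO had the genotype Lgr5-EGFP-IRES-CreERT2/+;Sox21fl/fl, which adds, at 1 copy of the stem cell gene Lgr5, a cassette for a green fluorescent protein and a tamoxifen-inducible Cre recombinase. Cre made there can act only in Lgr5-positive cells and their descendants, whereas whole crypts were sequenced, and only CKO carries the Lgr5 knock-in. Both groups share the floxed Sox21 alleles, a normal diet and a normal liver. The labels state neither the ages of the mice nor whether flox mice had tamoxifen. They also do not say that each sample is another animal, so a p-value measures the spread between these samples, which may be technical. The series title names blood glucose as the study's subject, and the question put to these genes is whether their transcripts differ between flox and CKO crypts.

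Cells take up glucose through facilitative carriers of the Slc2a family or, against a gradient, with sodium through Slc5a carriers, and hexokinase traps it as glucose-6-phosphate. From there it runs down glycolysis to pyruvate, into glycogen, or through the pentose phosphate pathway, which yields NADPH and ribose. Pyruvate becomes lactate or enters mitochondria through pyruvate dehydrogenase, which pyruvate dehydrogenase kinases switch off, while gluconeogenesis, mainly a task of liver and kidney, runs the path in reverse. Colonic epithelium is known for drawing much of its energy from butyrate made by gut bacteria, with glucose and glutamine beside it.

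Promoter windows are printed for 4 of the genes. Pdk3 had the smallest p-value of the 47, and Slc37a2 had the largest difference. Eno3 had the value that turned most on which libraries were used. Ldha had the window with the most motif matches, counted on both strands, of any window found for the 49 genes. Each window runs from 250 bases before to 50 bases after a RefSeq transcription start on build GRCm38.p6, and is written 5′ to 3′ on the strand of the gene. Capitals mark ACGTG or GCGTG on either strand, the core letters that hypoxia-inducible factors read. Of these, ACGTG but not GCGTG also lies inside CACGTG, the site of the MYC and carbohydrate-response factors. The Pdk3 window lies at chrX:93832101-93832400 on the minus strand and holds 4 core matches. The Slc37a2 window at chr9:37255689-37255988, also on the minus strand, holds 0. The Eno3 window at chr11:70656926-70657225 on the plus strand holds 1. The Ldha window at chr7:46845554-46845853 on the plus strand holds 7 core matches, among them 2 CACGTG, each of which counts on both strands. A window of Ugp2, not printed, holds 6 core matches and 0 CACGTG, so the first place of Ldha rests on that way of counting.
Pdk3: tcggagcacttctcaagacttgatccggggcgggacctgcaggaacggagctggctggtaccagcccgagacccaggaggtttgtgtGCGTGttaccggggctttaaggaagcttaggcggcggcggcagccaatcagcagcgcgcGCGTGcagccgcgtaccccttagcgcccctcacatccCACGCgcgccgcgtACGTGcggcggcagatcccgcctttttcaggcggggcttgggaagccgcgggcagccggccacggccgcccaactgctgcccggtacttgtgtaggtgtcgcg
Slc37a2: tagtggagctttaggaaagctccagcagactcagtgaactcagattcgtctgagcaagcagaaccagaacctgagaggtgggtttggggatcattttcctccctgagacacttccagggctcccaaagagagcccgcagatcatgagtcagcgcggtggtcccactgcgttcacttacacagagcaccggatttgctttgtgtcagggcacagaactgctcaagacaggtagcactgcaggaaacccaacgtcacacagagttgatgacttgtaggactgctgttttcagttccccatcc
Eno3: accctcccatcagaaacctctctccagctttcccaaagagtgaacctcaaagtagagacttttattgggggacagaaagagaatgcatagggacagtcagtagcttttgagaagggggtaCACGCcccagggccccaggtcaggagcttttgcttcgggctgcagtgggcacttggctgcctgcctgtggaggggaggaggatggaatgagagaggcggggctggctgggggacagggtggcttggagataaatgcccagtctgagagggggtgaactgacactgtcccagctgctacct
Ldha: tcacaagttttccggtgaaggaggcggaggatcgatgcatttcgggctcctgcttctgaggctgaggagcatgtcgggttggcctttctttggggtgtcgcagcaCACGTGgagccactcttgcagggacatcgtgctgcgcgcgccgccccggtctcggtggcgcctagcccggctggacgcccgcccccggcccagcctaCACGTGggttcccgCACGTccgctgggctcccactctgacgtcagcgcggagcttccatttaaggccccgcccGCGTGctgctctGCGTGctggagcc

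The RefSeq table held 68 such windows for 47 of the 49 genes. A core match was found in 64.7% of these windows and in 43.8% of all 32851 windows of that length. The sugar genes' windows were also richer in G and C, with a median of 60.2% against 52.7%, and the part of base composition in the motif share was not tested. CACGTG was found in 11.8% against 7.15%. These are matches of letters and say nothing of binding in these crypts.

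The libraries did not all look alike. Total counts ran from 18926634 to 23642415. The share of mitochondrial reads was 26.5% for flox 1 and 29.3% for flox 4, whereas the remaining 8 libraries had 4.30% to 11.8%. Levels of Sox21 itself gave no check of the labels, at 1.98, 6.53, 4.06, 2.72 and 4.93 CPM (counts scaled to a common normalized library size) for flox 1 to 5 and 7.79, 6.73, 3.39, 3.51 and 5.27 CPM for CKO 1 to 5 (log2 difference 0.38 ± 0.34, SE, edgeR adjusted p = 0.577). Flox and CKO therefore mean the libraries so labelled throughout, and no direction below rests on a measured loss of Sox21. The factors that scale library size for CPM (trimmed mean of M values) were 0.585 for flox 1, 0.605 for flox 4 and 0.965 to 1.28 for the remaining 8. A lower factor gives a higher CPM for the same count, so the height of flox 1 and flox 4 in CPM depends on it. These 2 mitochondria-rich libraries belong to 1 group, so the main results below are also given without them. The plot of log2 differences shows that value for all 47 tested genes.

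Transcripts of glycolytic and pentose phosphate enzymes were the most abundant of the 49. Levels of different genes are compared here per transcript length, in FPKM (fragments scaled by transcript length and library size, the authors' values), as the median over all 10 libraries. Gapdh led with 2387 FPKM, and its lowest library (1878) lay above the highest of Ldha (1340), which came next with a median of 1027. Eno1 (616), Taldo1 (594) and Tpi1 (564) followed, with ranges that overlapped. Gpi1 and Pkm were not told apart, at 492 and 491 FPKM. The sugar carriers stood far lower: Slc2a1, the common basal glucose carrier, at 46.9 FPKM and Slc5a1, the sodium-coupled carrier of the intestinal brush border, at 34.0. The carriers Slc2a5 for fructose (0.655), Slc2a3 (0.150) and Slc2a2 (0) closed the order.

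**Figure D1:**
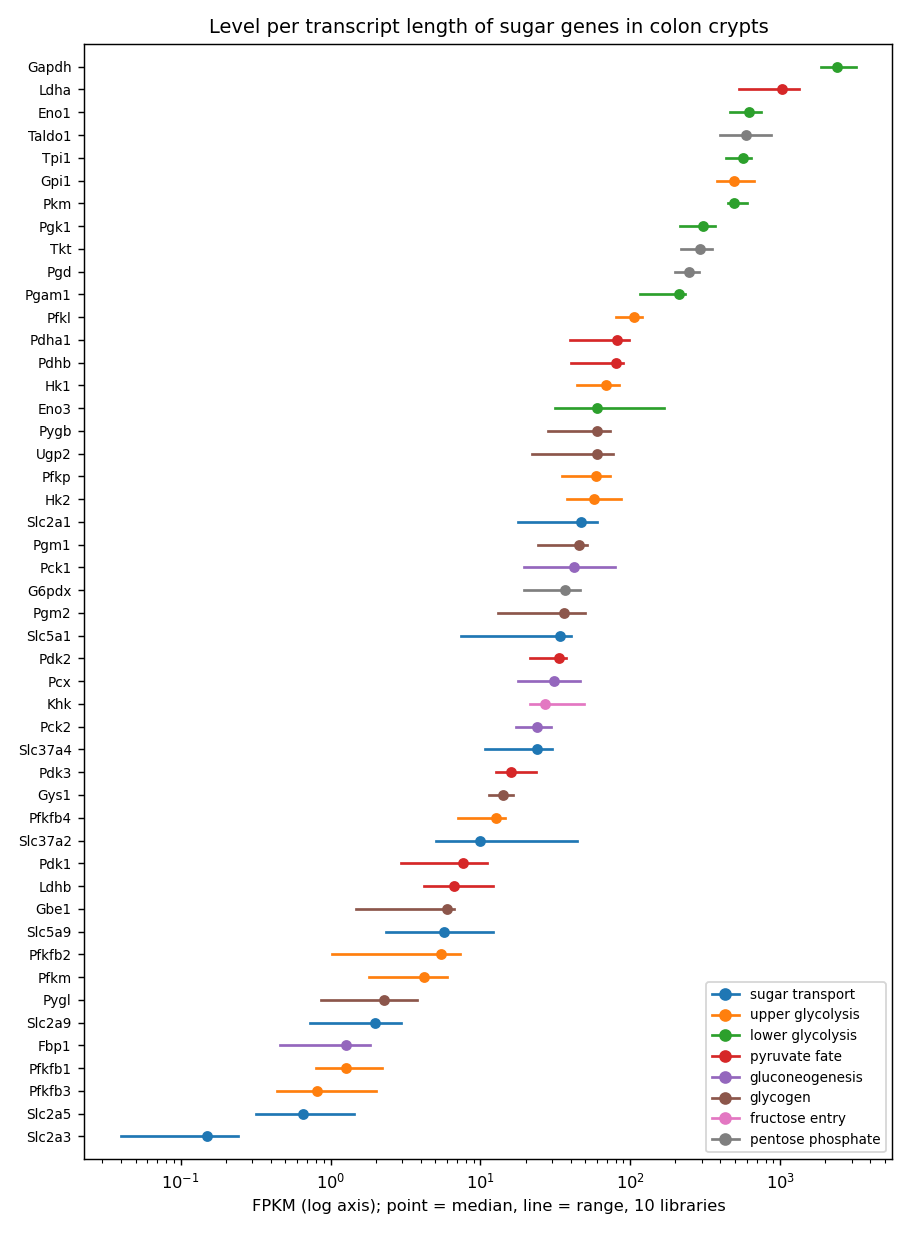
Level per transcript length of sugar genes in FPKM on a log axis, in order of level, coloured by step, with the median as a point and the range over 10 libraries as a line; Slc2a2, listed at 0 in flox, cannot be drawn on it. Gapdh (2387), Ldha (1027) and Eno1 (616) stand highest, and Slc2a3 (0.150) lowest.

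For some enzymes 1 isoenzyme held most of the transcript, within each library and per length, and for others it did not. The FPKM ratio of Ldha, the lactate-forming subunit of muscle and epithelium, to Ldhb, the heart-type subunit, ran from 78.4 to 246 over the 10 libraries. Pygb, the brain-type glycogen phosphorylase, stood 18.6 to 34.7 times as high as Pygl, the liver type. Among phosphofructokinases, which make the committing step of glycolysis, Pfkp stood at 0.303 to 0.704 of the liver type Pfkl and the muscle type Pfkm at 0.0152 to 0.0670 of it. Hk2, the insulin- and hypoxia-regulated hexokinase, was closer to the constitutive Hk1, at 0.537 to 1.29 of it. The cytosolic Pck1 and the mitochondrial Pck2, both phosphoenolpyruvate carboxykinases, likewise stood near each other, at 0.883 to 2.66. So did Pgm1 and Pgm2, at 0.970 to 1.85.

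Between flox and CKO, 0 of 47 sugar genes passed an adjusted p of 0.05 by edgeR's quasi-likelihood test, and 0% of all 14963 genes did (DESeq2 called 178). At an unadjusted p under 0.05, 6 of the 47 were found (12.8%), 1 higher in CKO (Slc37a2) and 5 lower (Pdk3, Gys1, Pfkl, Pgd and Eno1). The background was 13.0% of all genes, 5.05% higher and 7.91% lower, so the sugar genes' share lay at that of all genes. The median log2 difference, CKO over flox, was -0.12 over the sugar genes, with 14 above 0 and 33 below, and 0.0010 over all genes. By DESeq2, a second count test, Pdk3 alone passed, lower in CKO with an adjusted p of 0.0269, where 1.19% of all genes passed, 0.401% higher and 0.789% lower. In 0 of the 47 genes did all CKO libraries lie on 1 side of all flox libraries, which held for 2.18% of all genes, 0.922% higher in CKO and 1.26% lower.

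Leaving out flox 1 and flox 4 changed which genes stood out. At an unadjusted p under 0.05 there were then 4 sugar genes (8.51%), Slc37a2 and Eno3 higher and Slc5a9 and Pdk3 lower, against 6.41% of all genes, 3.34% higher and 3.07% lower. DESeq2 then called Eno3 higher (adjusted p = 0.0485) and no longer Pdk3 (0.361), beside 0.454% of all genes, 0.224% higher and 0.230% lower. The sugar genes' median was -0.09 against 0.02 over all genes. By CPM, flox 1 and flox 4 were both above the other 3 flox libraries in 18 of the 47 sugar genes (38.3%, against 26.9% of all genes). They were both below in 12 (25.5%, against 29.5%). The 18 included 6 of the 7 genes of lower glycolysis and none of the 7 tested transport genes, 5 of which were among the 12.

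**Figure D2:**
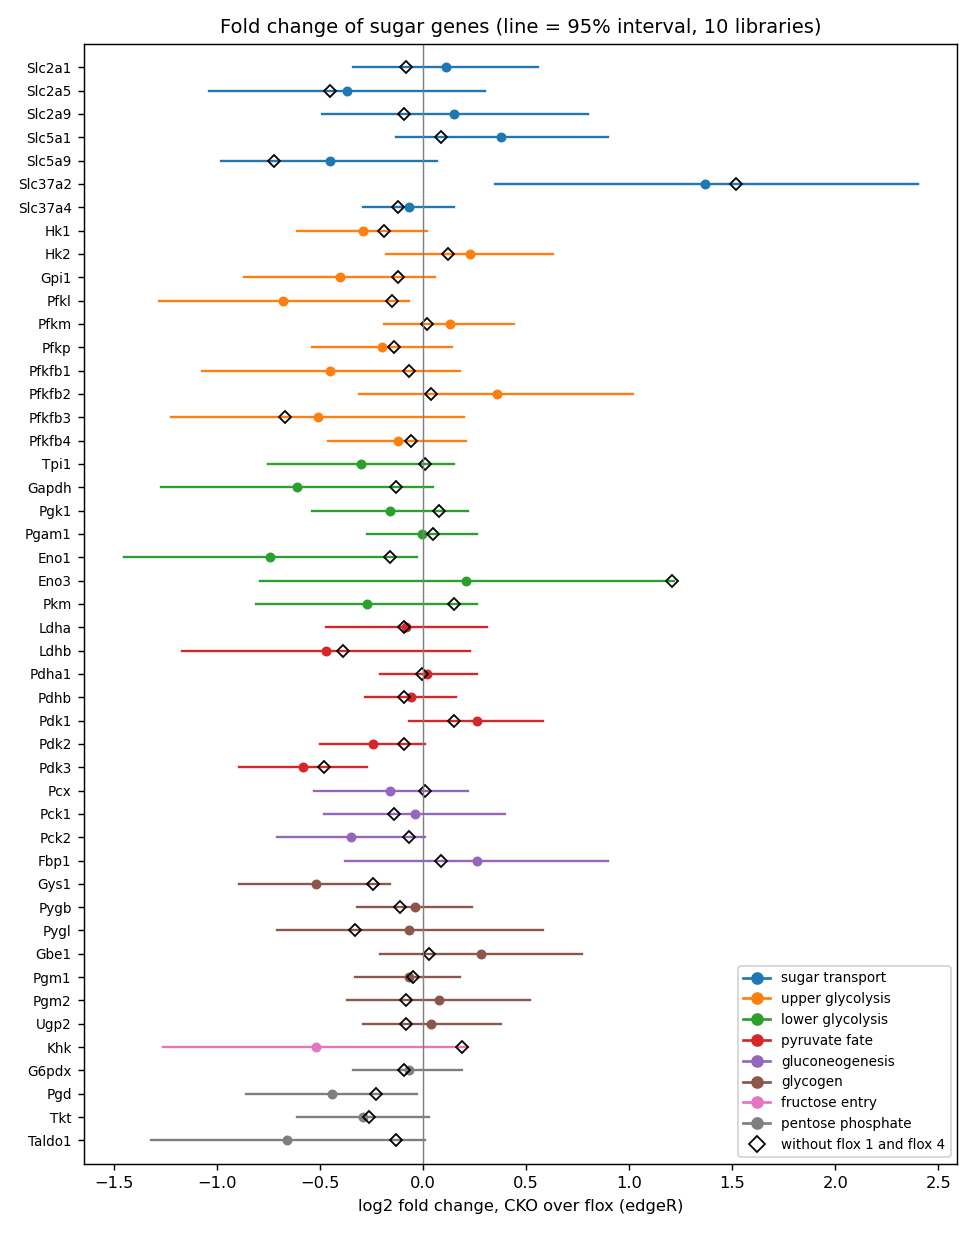
Log2 difference of the 47 tested sugar genes, CKO over flox, with 95% intervals from the edgeR fit to all 10 libraries, and beside each the value without flox 1 and flox 4. Slc37a2 lies farthest to the right (1.37), and Eno3 moves most when the 2 libraries are left out (0.21 to 1.21).

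**Figure D3:**
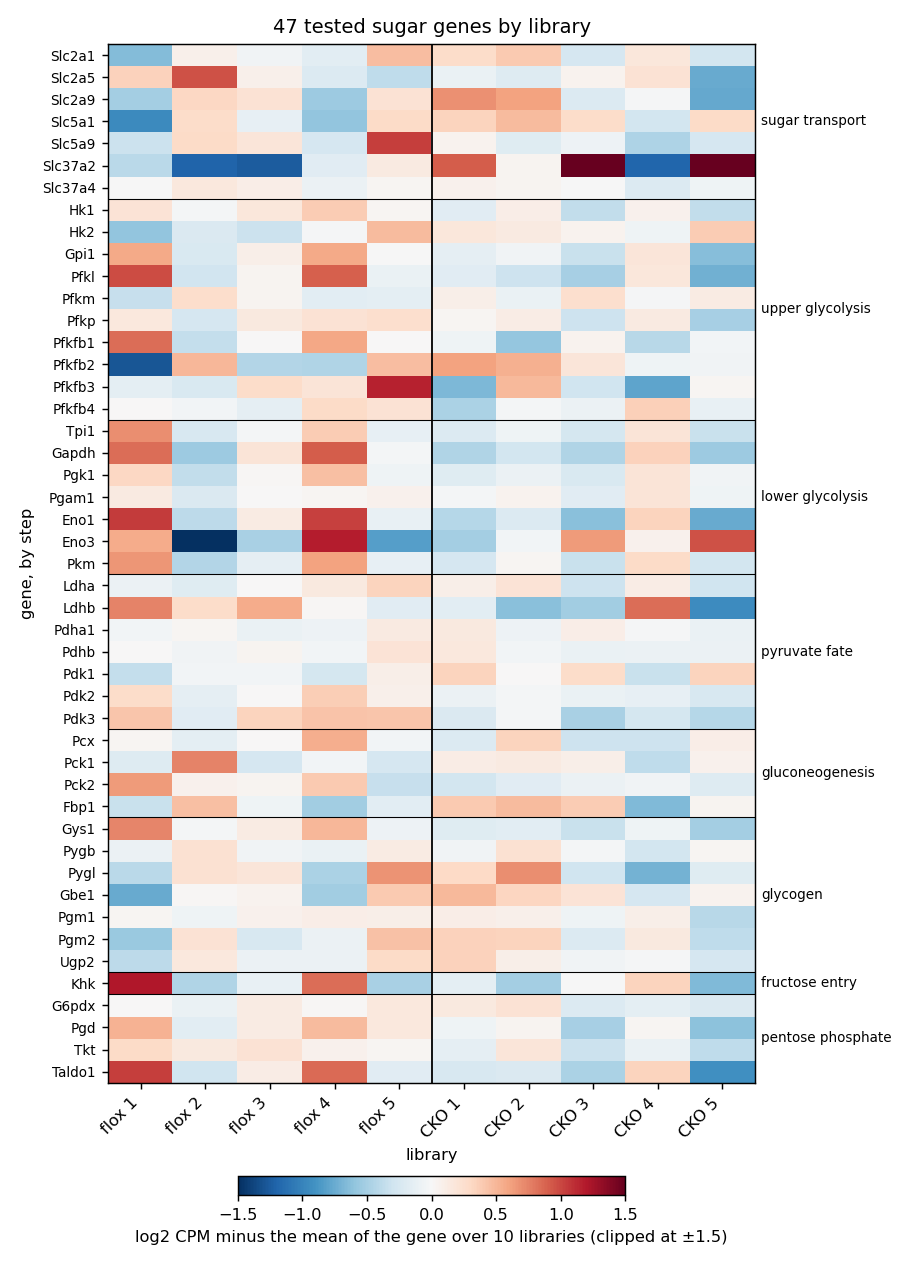
Log2 CPM of the 47 tested sugar genes in the 10 libraries, each gene relative to its own mean over libraries, ordered by step. Flox 1 and flox 4 stand above the other 3 flox libraries in 6 of the 7 genes of lower glycolysis and below them in 5 of the 7 transport genes.

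No gene of sugar transport passed the adjusted threshold, and 1 of the 7 tested, Slc37a2, was at an unadjusted p under 0.05. Slc37a2, an exchanger of glucose-6-phosphate and phosphate in the membrane of the endoplasmic reticulum (ENSMUSG00000032122), read 28.7, 16.6, 16.0, 33.8 and 41.9 CPM in flox 1 to 5 and 71.4, 39.2, 113, 16.7 and 114 CPM in CKO 1 to 5. CKO 1, 3 and 5 lay above every flox library, CKO 2 among the upper flox libraries and CKO 4 near the flox minimum, so the groups overlapped. The log2 difference was 1.37 ± 0.47 (SE; edgeR unadjusted p = 0.0131, adjusted p = 0.365). Leaving out flox 1 and flox 4 gave 1.52. Without CKO 3 and CKO 5 it was 0.63 (edgeR unadjusted p = 0.191), so its size rests on those libraries. CKO 3, 4 and 5 were also the libraries with the highest summed level of 6 fibroblast genes (118, 112 and 180 CPM, 15.3 to 61.6 in the other 7). CKO 4 had the lowest Slc37a2 of CKO. Summed immune cell genes ran from 18.8 to 31.1 CPM in flox, highest in flox 1, and from 22.4 to 37.0 in CKO. Within CKO the sum was highest in CKO 5 (37.0) and CKO 3 (28.1), the CKO libraries with the most Slc37a2. Lyz2, Cd68 and Itgam were each highest in CKO 5 and next in CKO 3 among CKO libraries. Ptprc, Cd3e, Cd8a, Cd79a and Jchain did not have that order. The part of other cells in the Slc37a2 level was not tested.

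The main glucose carriers, Slc2a1 and Slc5a1, were not at an unadjusted p under 0.05. Slc2a1 read 71.8, 118, 108, 101 and 155 CPM in flox 1 to 5 and 136, 148, 94.7, 126 and 93.0 CPM in CKO 1 to 5. CKO lay inside the flox range, and the log2 difference had a 95% interval from -0.34 to 0.56. Slc5a1 read 48.3, 113, 85.4, 62.1 and 114 CPM in flox 1 to 5 against 118, 130, 113, 77.3 and 114 CPM in CKO 1 to 5. Flox 1 and flox 4 were the lowest libraries, and the log2 difference of 0.38 ± 0.24 (SE; edgeR adjusted p = 0.454, 95% interval -0.13 to 0.90) became 0.09 without them. Slc5a9, a sodium-coupled carrier of mannose and glucose, read 11.4, 17.3, 16.1, 11.9 and 29.1 CPM in flox and 14.7, 12.5, 13.5, 10.3 and 11.9 CPM in CKO. Without flox 1 and flox 4 every flox library stood above every CKO library, with a log2 difference of -0.72 (edgeR unadjusted p = 0.00375, adjusted p = 0.593), against -0.45 over all 10; this gene was picked after its values were seen. The share of all genes separated in this way was not counted without flox 1 and flox 4. With flox 5, its highest library, left out alone, the difference of Slc5a9 was -0.18.

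The low carriers carried little information. Slc2a2, the carrier of liver and small intestine, had 0 reads in all flox libraries, which allows up to 0.237 CPM in flox 1, the library with the highest limit at 3 counts. Its reads in CKO 1 to 5 were 1, 2, 1, 0 and 5. Slc2a3, the neuronal carrier, had 6, 9, 8, 1 and 5 reads in flox and 11, 18, 10, 5 and 13 in CKO. Slc2a5 ran from 1.34 to 3.37 CPM in flox and from 1.03 to 2.03 in CKO, and Slc2a9, which carries urate, stood at 5.12 ± 1.40 and 5.75 ± 2.25 CPM (SD, n = 5 each). Slc37a4, which feeds glucose-6-phosphate to the glucose-6-phosphatase inside the endoplasmic reticulum, was steady, at 29.5 to 35.2 CPM in flox and 27.2 to 33.0 in CKO (log2 difference -0.07, interval -0.29 to 0.15).

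**Figure D4:**
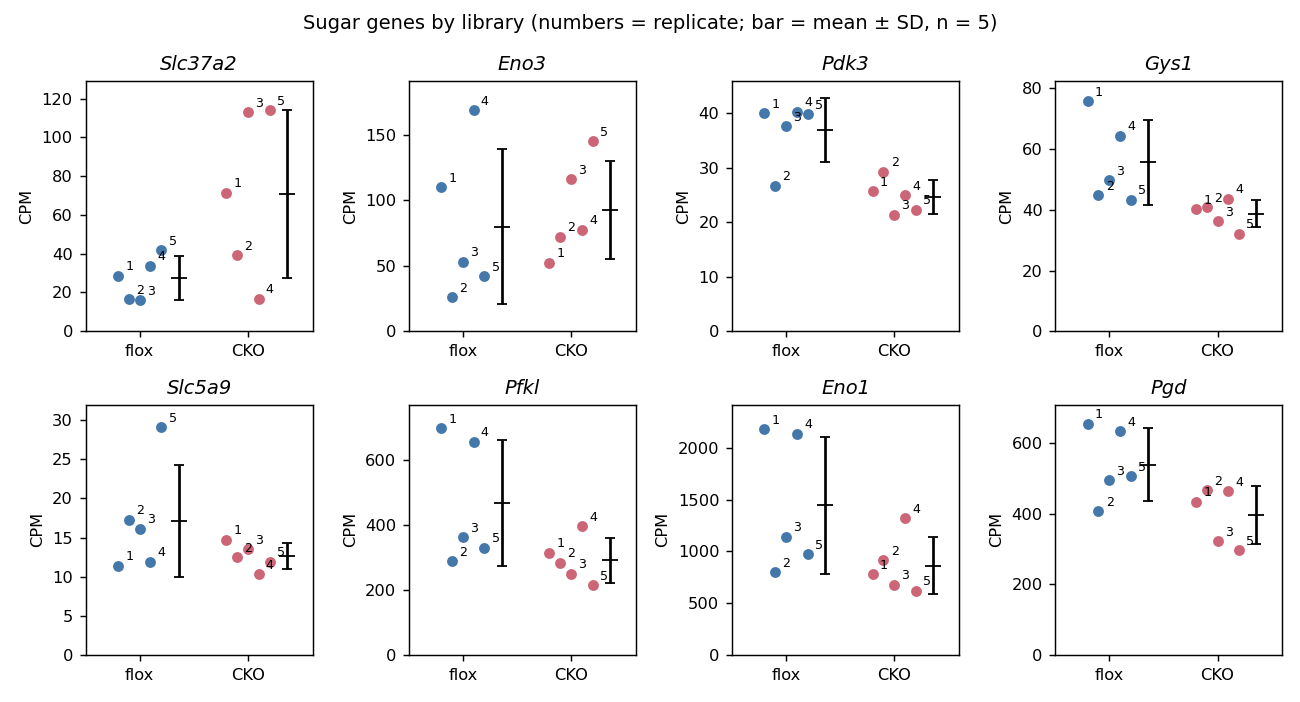
CPM of 8 sugar genes by library, flox and CKO side by side, with points numbered by replicate and the mean ± SD of 5 libraries as a bar. Pdk3 is at most 29.3 CPM in the 5 CKO libraries and in flox 2, and higher in the other 4 flox libraries, while flox 1 and flox 4 hold the highest Pfkl, Eno1, Gys1 and Pgd.

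In upper glycolysis, 1 of 10 genes was at an unadjusted p under 0.05. Pfkl, the liver-type phosphofructokinase (ENSMUSG00000020277), read 699, 289, 363, 657 and 330 CPM in flox 1 to 5 and 315, 284, 250, 397 and 215 CPM in CKO 1 to 5. Flox 1 and flox 4 stood far above the rest by CPM, and the other 3 flox libraries lay among CKO. Before scaling, the counts were 8835 in flox 1 and 8698 in flox 4, against 8131, 8151 and 7632 in flox 2, 3 and 5. Pfkl ran from 103 to 119 FPKM in flox and from 80.3 to 113 in CKO. Its log2 difference was -0.68 ± 0.28 (SE, edgeR unadjusted p = 0.0309, adjusted p = 0.374) and -0.15 without flox 1 and flox 4. Hk2 read 87.3, 114, 106, 130 and 184 CPM in flox against 148, 145, 137, 126 and 172 in CKO, with overlapping groups and an interval of -0.18 to 0.63 on the log2 scale. Hk1 ran from 254 to 336 CPM in flox and from 200 to 278 in CKO (-0.29 ± 0.14, edgeR adjusted p = 0.396; -0.19 without flox 1 and flox 4). Gpi1, the isomerase that follows hexokinase, stood at 964 ± 237 CPM in flox and 728 ± 151 in CKO (log2 difference -0.40, and -0.12 without flox 1 and flox 4), and Pfkp at 197 ± 25.4 and 172 ± 32.2. Pfkm stood at 9.67 ± 1.59 and 10.6 ± 1.02 CPM. Of the 4 bifunctional enzymes that set the level of the phosphofructokinase activator fructose-2,6-bisphosphate, Pfkfb4 had the highest median per length (12.8 FPKM) and stood at 30.8 ± 3.84 and 28.3 ± 5.90 CPM. Pfkfb2 ran from 4.75 to 16.3 CPM in flox and from 11.1 to 17.6 in CKO, Pfkfb3 stood at 4.43 ± 1.95 and 3.11 ± 1.18, and Pfkfb1 at 1.78 ± 0.605 and 1.28 ± 0.233 (SD, n = 5 each).

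Lower glycolysis, from triose phosphate to pyruvate, was highest in flox 1 and flox 4 by CPM, which depends on the low scaling factors of those libraries. Its summed level of 7 genes, led by Gapdh with 35.9% of the sum, was 9586 CPM in flox 1 and 9524 in flox 4. The other 3 flox libraries ran from 4185 to 5899, and the CKO libraries from 4291 to 6904. Eno1, the ubiquitous enolase (ENSMUSG00000063524), was at an unadjusted p under 0.05, with 2177, 797, 1141, 2137 and 971 CPM in flox 1 to 5 and 781, 914, 679, 1322 and 621 CPM in CKO 1 to 5. The groups overlapped, and the log2 difference of -0.74 ± 0.33 (SE; edgeR unadjusted p = 0.0421, adjusted p = 0.381) became -0.16 without flox 1 and flox 4. Gapdh read 3579, 1372, 2288, 3749 and 1959 CPM in flox against 1466, 1655, 1458, 2544 and 1368 CPM in CKO. Flox 1 and flox 4 were again highest by CPM, and CKO 4 stood above the rest of CKO. Counts of Gapdh before scaling were 45238 in flox 1 and 49618 in flox 4, against 38652, 51343 and 45277 in flox 2, 3 and 5. The log2 difference of Gapdh was -0.61 ± 0.30 (SE, edgeR adjusted p = 0.400), and -0.13 without flox 1 and flox 4. CKO 4 was also the CKO library with the largest mitochondrial share, 11.8%. The part of that share in these levels was not tested beyond a fit with it as a covariate, which gave -0.07 for Gapdh and -0.11 for Eno1.

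Pkm, pyruvate kinase of muscle and most epithelia, read 1675, 781, 967, 1620 and 972 CPM in flox and 890, 1080, 842, 1291 and 877 CPM in CKO. Without flox 1 and flox 4 its log2 difference turned from -0.27 to 0.15. Tpi1 (821 ± 234 and 665 ± 101 CPM) and Pgk1 (486 ± 107 and 435 ± 51.9) had the same 2 libraries on top. Pgam1, the phosphoglycerate mutase, was alike in all libraries by CPM, at 242 to 307 in flox and 250 to 322 in CKO, with an interval of -0.27 to 0.26. Per length it was not, at 117 to 213 FPKM in flox and 212 to 233 in CKO. Gapdh, Tpi1, Pgk1, Pgam1, Eno1, Pkm and Ldha have processed pseudogenes that can share reads with them. How many reads they share is unknown here, so their values carry that uncertainty.

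Eno3, the enolase known from muscle (ENSMUSG00000060600), read 110, 25.9, 53.1, 169 and 41.9 CPM in flox 1 to 5 and 52.2, 72.2, 116, 77.7 and 145 CPM in CKO 1 to 5. Flox 4 was the highest of all libraries and flox 2 the lowest, so flox spanned the whole CKO range. Over all 10 libraries the log2 difference was 0.21 ± 0.46 (SE; edgeR adjusted p = 0.826). Without flox 1 and flox 4 it was 1.21 (edgeR adjusted p = 0.648, DESeq2 adjusted p = 0.0485). Without CKO 3 and CKO 5 it was -0.24, so both its size and its sign rest on which libraries enter. Of the skeletal muscle genes, Ckm had 2 reads in flox 1 and 3 in flox 4, the flox libraries with the most Eno3, and 0 in every other library. Mb was at 0.396 and 0.227 CPM in those libraries, 0 to 0.107 in the other flox libraries and 0 to 0.277 in CKO. The summed muscle level, nearly all Acta1, was 0.991 CPM in CKO 5, the CKO library with the most Eno3, and 22.2 in flox 4. In flox 1 that sum was 9.89 CPM, below the 11.1 of flox 3. Summed smooth muscle genes did not pass 2.04 CPM in any library, and the part of muscle RNA in the Eno3 level was not tested.

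Among the genes of pyruvate fate, Pdk3 stood out by library in CPM. Pdk3, a kinase that inactivates pyruvate dehydrogenase (ENSMUSG00000035232), read 40.1, 26.7, 37.7, 40.3 and 39.9 CPM in flox 1 to 5 and 25.7, 29.3, 21.4, 25.0 and 22.3 CPM in CKO 1 to 5. Flox 2 alone fell inside the CKO range, and each of the other 4 flox libraries lay above every CKO library. CKO differed from flox by -0.58 ± 0.14 on the log2 scale (SE; edgeR unadjusted p = 0.00166, adjusted p = 0.283), with a 95% interval from -0.89 to -0.27. By DESeq2 the adjusted p was 0.0269 over all 10 libraries. With flox 1 and flox 4 left out it was 0.361, and edgeR's difference was -0.48 (unadjusted p = 0.0104). Scaled by total counts alone it was -0.18, while the median of all genes moved to 0.36 under that scaling. Over the single libraries left out in turn it ran from -0.67 to -0.53.

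The other kinases did not follow Pdk3 past the threshold. Pdk2 ran from 51.6 to 73.1 CPM in flox and from 47.9 to 55.7 in CKO (-0.24 ± 0.12, SE, edgeR adjusted p = 0.389), and its difference was -0.09 without flox 1 and flox 4. Pdk1, the kinase best known as a hypoxia target, ran from 22.4 to 30.4 CPM in flox and from 22.8 to 36.3 in CKO (0.26 ± 0.15, adjusted p = 0.439; 0.15 without them). The 2 subunits of the enzyme they act on were steady: Pdha1 stood at 180 ± 11.8 CPM in flox and 183 ± 13.8 in CKO, and Pdhb at 85.5 ± 6.24 and 82.0 ± 6.41 (SD, n = 5 each). The intervals of their log2 differences were -0.21 to 0.26 and -0.28 to 0.16. Ldha, which turns pyruvate to lactate, read 1181, 1112, 1263, 1394 and 1591 CPM in flox and 1335, 1455, 1016, 1360 and 1020 CPM in CKO. Its groups overlapped almost fully, with a log2 difference of -0.08 and an interval of -0.47 to 0.31. Ldhb was low, at 8.01 ± 2.04 and 5.80 ± 3.22 CPM.

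Of the 4 gluconeogenic genes, none was at an unadjusted p under 0.05. Pck1, the cytosolic carboxykinase that is rate-limiting in liver, read 79.1, 152, 76.2, 88.0 and 76.4 CPM in flox and 97.9, 99.6, 96.2, 69.5 and 94.9 CPM in CKO. Flox 2 stood alone above all libraries and CKO 4 alone below the rest. The log2 difference was -0.04 with an interval of -0.48 to 0.40, and 0.20 without flox 2. Pck2, its mitochondrial counterpart, read 89.3, 59.5, 58.7, 75.0 and 44.9 CPM in flox and 47.1, 50.7, 53.6, 55.2 and 49.9 CPM in CKO. By CPM, flox 5 was the lowest library and the other 4 flox libraries lay above CKO. Per length, Pck2 ran from 17.3 to 29.6 FPKM in flox and from 22.4 to 28.6 in CKO. Its log2 difference was -0.35 ± 0.17 (SE, edgeR unadjusted p = 0.0568, adjusted p = 0.387), and -0.07 without flox 1 and flox 4. Pcx, pyruvate carboxylase, stood at 124 ± 25.6 and 111 ± 22.8 CPM. Fbp1, the fructose-1,6-bisphosphatase of liver, read 1.03, 1.78, 1.25, 0.907 and 1.17 CPM in flox and 1.71, 1.81, 1.70, 0.823 and 1.34 CPM in CKO. The groups overlapped, and its partner Fbp2, outside the 49 genes, was far more abundant by counts, at 131 and 120 CPM.

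In glycogen turnover 1 of 7 genes was at an unadjusted p under 0.05. Gys1, the glycogen synthase of tissues other than liver (ENSMUSG00000003865), read 75.9, 44.8, 49.8, 64.5 and 43.4 CPM in flox 1 to 5 and 40.3, 40.9, 36.3, 43.7 and 32.2 CPM in CKO 1 to 5. By CPM, only flox 5, at 43.4, fell below the highest CKO library. Per length, Gys1 ran from 11.5 to 16.6 FPKM in flox and from 12.4 to 14.8 in CKO. The difference on the log2 scale was -0.52 ± 0.17 (SE; edgeR unadjusted p = 0.00922, adjusted p = 0.359), and -0.24 without flox 1 and flox 4. The enzymes that break glycogen down or shape it differed less than their spread: Pygb stood at 189 ± 19.2 and 184 ± 23.3 CPM, and Pygl had a log2 difference of -0.07 with an interval of -0.71 to 0.58. The branching enzyme Gbe1 ran from 4.67 to 10.4 CPM in flox and from 6.64 to 11.1 in CKO. Pgm1 and Pgm2, phosphoglucomutases, stood at 87.8 ± 3.72 and 83.5 ± 11.6 and at 68.4 ± 18.1 and 72.3 ± 15.7 CPM. Ugp2, which makes the UDP-glucose that glycogen synthase uses, stood at 98.3 ± 17.3 and 101 ± 16.0 CPM (SD, n = 5 each).

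Khk, ketohexokinase, which commits fructose to metabolism, was the only gene of the fructose entry step. It read 57.0, 18.1, 23.0, 44.3 and 17.7 CPM in flox and 22.5, 17.4, 24.7, 31.4 and 15.7 CPM in CKO. Flox 1 and flox 4 were the 2 highest libraries, and without them its log2 difference turned from -0.52 to 0.19.

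All 4 pentose phosphate genes had a log2 difference below 0, with and without flox 1 and flox 4, and 1 was at an unadjusted p under 0.05. Pgd, which makes NADPH in the second oxidative reaction (ENSMUSG00000028961), read 656, 408, 495, 635 and 507 CPM in flox 1 to 5 and 435, 468, 323, 464 and 297 CPM in CKO 1 to 5. By CPM, only flox 2 fell inside the CKO range. Per length, Pgd ran from 199 to 284 FPKM in flox and from 198 to 287 in CKO. The groups differed by -0.44 ± 0.19 on the log2 scale (SE; edgeR unadjusted p = 0.0378, adjusted p = 0.379), and -0.23 without flox 1 and flox 4. G6pdx, the entry enzyme, read 77.8, 72.5, 84.0, 78.1 and 86.7 CPM in flox and 85.7, 89.9, 67.3, 69.8 and 66.5 CPM in CKO, with an interval of -0.34 to 0.19. Tkt and Taldo1, the enzymes of the non-oxidative branch, stood at 569 ± 42.8 and 467 ± 73.9 and at 724 ± 307 and 459 ± 146 CPM, with edgeR adjusted p-values of 0.404 and 0.386. The log2 difference of Tkt moved from -0.29 to -0.26 and that of Taldo1 from -0.66 to -0.13 without flox 1 and flox 4.

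Ratios of partner genes within a library do not depend on how libraries are scaled. Of 12 pairs listed, 11 could be computed, since Slc2a2 had 0 reads in flox, and 0 of 11 passed after Benjamini-Hochberg adjustment. The smallest p belonged to Eno3 over Eno1, whose log2 count ratio was -4.30, -4.95, -4.43, -3.66 and -4.54 for flox 1 to 5, and for CKO 1 to 5 it was -3.90, -3.66, -2.55, -4.09 and -2.10. CKO 3 and CKO 5 lay clear of all flox libraries. The difference was 1.11 (two-sided exact permutation p = 0.0317, adjusted p = 0.196), and 1.37 without flox 1 and flox 4. The ratio of Hk2 to Hk1 differed by 0.57 (exact permutation p = 0.0714), Pdk2 to Pdk1 by -0.48 (0.0635) and Pfkfb3 to Pfkfb2 by -0.98 (0.0556), each with an adjusted p of 0.196. These 3 differences without flox 1 and flox 4 were 0.36 (exact permutation p = 0.286), -0.22 (0.286) and -0.72 (0.214). The ratio of Pygb to Pygl differed by 0.04 (exact permutation p = 0.865). With 5 libraries against 5 the smallest possible p was 0.00794.

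**Figure D5:**
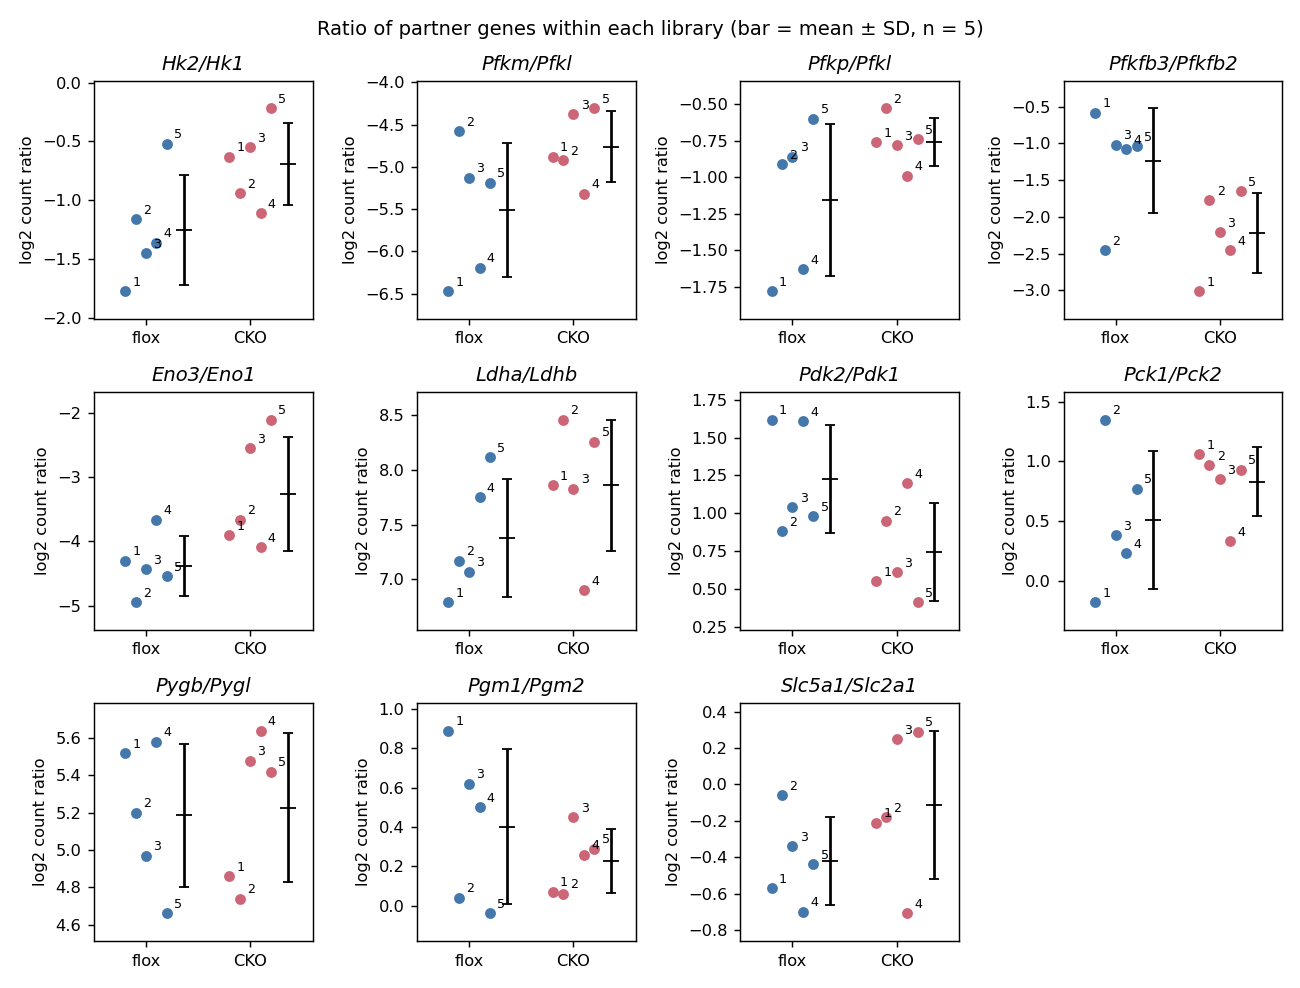
Log2 ratio of counts of 2 partner sugar genes within each library, for 11 pairs, flox and CKO side by side, with points numbered by replicate and the mean ± SD of 5 libraries as a bar. Eno3 over Eno1 is highest in CKO 5 (-2.10) and CKO 3 (-2.55), and for every pair the groups overlap.

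The rest of the pathway was read from a list of 86 further genes, of which 69 were tested, and 0 passed edgeR's adjusted threshold. At an unadjusted p under 0.05, 9 were higher in CKO and 7 lower (23.2%, against 13.0% of all genes). The count was 4 higher and 4 lower of 69 without flox 1 and flox 4, against 6.41% of all genes. By list over all 10 libraries this was 2 higher of 8 sugar transporters, 1 higher of 8 glycolytic genes, 2 higher of 13 genes of pyruvate and lactate handling, 1 lower of 6 gluconeogenic genes, and 1 higher and 1 lower of 9 glycogen genes. It was 3 lower of 7 fructose and galactose genes, 1 higher and 1 lower of 6 pentose phosphate genes, and 2 higher and 1 lower of 12 regulators.

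Slc5a3, a sodium-coupled carrier of myo-inositol in the family of Slc5a1, read 6.72, 12.1, 11.1, 9.29 and 18.0 CPM in flox 1 to 5 and 26.7, 23.2, 31.8, 19.4 and 31.3 CPM in CKO 1 to 5. Every CKO library lay above every flox library, which held for 0.922% of all genes in that direction. The difference was 1.21 ± 0.24 on the log2 scale (SE; edgeR adjusted p = 0.174). DESeq2 gave adjusted p-values of 0.00120 with all libraries and 0.0123 with flox 1 and flox 4 left out. Without those libraries DESeq2 also called H6pd, the glucose-6-phosphate dehydrogenase of the endoplasmic reticulum, lower in CKO (log2 difference -0.74, adjusted p = 0.0175; 0.0939 over all 10).

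Cell type markers differed between the libraries too. All 6 goblet cell genes had a log2 difference below 0, 3 of them at an unadjusted p under 0.05, with a summed level of 22094 to 38672 CPM in flox and 12809 to 23633 in CKO. Without flox 1 and flox 4, 5 of the 6 goblet cell genes were at that p. All 6 fibroblast genes were above 0, 3 at an unadjusted p under 0.05 over all libraries and 0 without flox 1 and flox 4. They summed to 15.3 to 61.6 CPM in flox and 42.4 to 180 in CKO. Over all genes, the share at that p was 7.91% lower and 5.05% higher with all libraries. Without flox 1 and flox 4 it was 3.07% lower and 3.34% higher. The 6 colonocyte genes summed to 1293 to 2793 CPM in flox and 1826 to 3245 in CKO. Of these, Slc26a3 was at an unadjusted p under 0.05, higher in CKO, and Krt20 was lowest in CKO 5 (383 CPM) and CKO 3 (585). The 5 stem and cycling cell genes summed to 179 to 267 CPM in flox and 205 to 248 in CKO. Lgr5, Smoc2 and Ascl2 were highest of all libraries in CKO 5 and CKO 3, and Mki67 and Top2a were not. Smoc2 was at an unadjusted p under 0.05, higher in CKO, but not without flox 1 and flox 4. Of 7 genes typical of the small or proximal intestine, Apoa1, Apoa4, Sis and Lct averaged under 1 CPM in both groups. The other 3 were present: Fabp2 averaged 318 CPM in flox and 286 in CKO, Rbp2 13.3 and 17.9, and Apob 31.1 and 57.6. Apob was higher in every CKO library (41.1 to 102 CPM) than in any flox library (18.8 to 40.1), with a log2 difference of 0.88 (edgeR adjusted p = 0.365) that was 0.57 without flox 1 and flox 4. The 7 genes summed to 216 to 580 CPM in flox and 130 to 729 in CKO. The part of cell composition in the sugar genes' values was not tested, and in bulk crypts fewer cells of a type and less RNA per cell cannot be told apart.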

How the data were processed

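Colon crypt mRNA was measured in 5 flox and 5 CKO samples, grouped and numbered by their titles. Per the labels' protocols, libraries were made from total RNA with a TruSeq kit that enriches mRNA. Per the submitters' processing notes, fastp and HISAT2 were used. Not given in the sources used here: their versions, genome build, annotation, counting tool and strand setting. Reads of overlapping or antisense genes may therefore be mixed. The deposited count table holds whole-number counts per Ensembl gene ID, not normalized. Values in the deposited FPKM table are scaled by length and library size, and the authors' lengths are not stated.

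Symbols came from GENCODE release M21 (26102 of 33632 IDs, with the 1 ID of most reads where 2 IDs share Aldoa). The 49 genes, the 86 further pathway genes (82 matched), the 71 markers (69 matched), the pairs and the rule for named genes were chosen with earlier results of these data known. A gene among the further pathway genes is counted but not reported here. The rule gives full values for the smallest p in each step, every gene at an unadjusted p under 0.05 or called by DESeq2, and 11 usual main or controlling genes; Eno3 and Slc5a9 were added after their values were seen. Counts were filtered (filterByExpr), scaled by trimmed mean of M values and compared with edgeR 4.0.16 in R 4.3.3 (robust quasi-likelihood test, group as the only term), adjusted by Benjamini-Hochberg over 14963 genes at a threshold of 0.05. CPM are counts scaled by the normalized library size. On counts simulated for this comparison, 44 of 100 genes changed 2-fold and 86 of 100 changed 4-fold were found, with 5 false calls, among 14698 genes tested. The simulation drew genes independently and held no pattern shared by many genes of a library, such as that of flox 1 and flox 4. It therefore does not give the sensitivity under such a pattern. Alternatives were DESeq2 1.42.0, limma 3.58.1 (voom, and log2 of FPKM plus 1 or 0.1), other scalings and filters, the replicate number as a block, the mitochondrial share as a covariate, and libraries left out. Same-numbered samples deviated together with correlations of -0.297, 0.282, 0.0899, 0.396 and -0.0574, so the numbers were not taken as pairs. Every 2 libraries differed by more than sampling noise (chi-square over its degrees of freedom at least 27.1).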

Additional observations from a re-analysis of the deposited data

Results flagged for a closer look

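In 8 of 94 groups of 5 libraries (47 sugar genes in flox and in CKO), 1 library stood apart from the other 4 by more of the range than Dixon's critical value at 95% for 5 samples. Chance alone flags about 1 group in 20. Of these, 3 genes stood apart in flox 2. Pdk3 was lowest there at 26.7 CPM (37.7 to 40.3 in the other 4), Pfkp was lowest at 153 CPM (201 to 217), and Pck1 was highest at 152 CPM (76.2 to 88.0). In CKO 4, Pck1 was lowest at 69.5 CPM (94.9 to 99.6) and Gapdh highest at 2544 CPM (1368 to 1655). Single cases were Pfkfb3 in flox 5, highest at 7.79 CPM (2.98 to 4.23), Pcx in flox 4, highest at 168 CPM (104 to 118), and Pdhb in CKO 1, highest at 93.2 CPM (77.9 to 81.5).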

How the results depend on the processing

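The count of sugar genes past an adjusted p of 0.05 was 0 in each direction under every alternative run, except 1 lower by DESeq2 and 1 higher by DESeq2 without flox 1 and flox 4. By unadjusted p under 0.05 (in the reported fit 1 higher and 5 lower), the numbers higher and lower were 1 and 10 by DESeq2, 3 and 11 by voom with quality weights, 2 and 0 by total counts, 4 and 0 by limma on either FPKM scale, 1 and 2 once the mitochondrial share was a covariate, 2 and 2 without flox 1 and flox 4 by edgeR and by DESeq2, and 0 and 1 without CKO 3 and CKO 5. Leaving out 1 library at a time gave 1 to 2 higher and 2 to 10 lower, the fewest without CKO 3 or CKO 5 and the most without CKO 4. The share of all genes at that p was counted only for the reported fit (13.0%) and for edgeR without flox 1 and flox 4 (6.41%). Counts under the other alternatives therefore have no background to be read against. The median log2 difference (-0.12) was 0.27 by total counts, 0.26 on log2(FPKM + 1) and 0.30 on log2(FPKM + 0.1), where the median of all genes was 0.36, 0.30 and 0.41. Groups did not overlap in 0 genes higher under each alternative run, and in 1 lower (Slc5a9) without flox 1 and flox 4. Without 1 library it was 0 to 4 lower, 4 of them without flox 2. This count was run only for CPM, total counts and FPKM. The share of all genes without overlap was counted only by CPM with no library left out (2.18%). Smaller groups separate more easily, so the counts under the alternatives have no background to be read against. The replicate number as a block gave 1 higher and 6 lower by unadjusted p and a median of -0.14, and 2 of 5 flox libraries correlated best with their own number.

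Single genes turned sign as follows, and the cause was not tested. By total counts, on log2(FPKM + 1) and on log2(FPKM + 0.1), Pkm was 0.20, 0.22 and 0.22, Ldha 0.27, 0.36 and 0.36, Pck1 0.28, 0.43 and 0.45, Pck2 0.09, 0.11 and 0.11, and G6pdx 0.28, 0.34 and 0.36. Khk was 0.03 by total counts, and Slc5a9 0.04 and 0.08 on the FPKM scales. With the mitochondrial share as a covariate, Slc2a1 was -0.06, Pkm 0.17, Fbp1 -0.01 and Khk 0.22. Without flox 1 and flox 4, by edgeR and by DESeq2, Slc2a1 was -0.08 and -0.08, Pkm 0.15 and 0.14, and Khk 0.19 and 0.19, and the log2 ratios Pck1/Pck2 and Pgm1/Pgm2 were -0.01 and 0.02. Without CKO 3 and CKO 5, chosen after seeing the data, Ldha was 0.08, G6pdx 0.04 and Eno3 -0.24. Pck1 was 0.0042 by voom, 0.15 with quality weights and 0.0028 with the block. Without 1 library, Slc2a1 ran from -0.01 to 0.27, Ldha from -0.14 to 0.0012, Pck1 from -0.11 to 0.20, Eno3 from -0.01 to 0.68 and Pygb/Pygl from -0.09 to 0.16. Of 629 values of single genes and pairs, 47 turned sign and 2 passed the threshold (Pdk3 and Eno3 by DESeq2). Genes under about 5 CPM have few reads, which limits Slc2a2, Slc2a3, Slc2a5, Fbp1, Pfkfb1 and Pfkfb3.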
